A study of Mus musculus with 15 samples.

Results

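The genes of cholesterol and fatty acid synthesis were followed in RNA of mouse small intestinal organoids. The group holds 30 genes, named by their place in the pathways and their control and not by their values, and all 30 were found among the 43629 genes of the count table. They comprise 7 enzymes of the mevalonate route, 11 enzymes that turn its product into cholesterol, 6 regulators and 6 enzymes of fatty acid synthesis and desaturation. The series compared organoids that had lost the tumour suppressor Apc, organoids in which an inversion joined Ptprk to Rspo3, and organoids with neither change. All cultures came from C57B6/129 mice.

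The WT group had 5 libraries: Apc flox/flox lines 1, 2, 5 and 6 with the alleles intact, and 1 dox-naive culture that carried the inducible editing system without doxycycline having switched it on. WT organoids grew in ENR medium, which contains the growth factors EGF and Noggin and the Wnt agonist RSPO1. The Apc group had 4 libraries, from the lines with the numbers 1, 2, 5 and 6 after deletion of Apc, and grew in EN medium, which lacks RSPO1. The P-Rspo3 group had 4 libraries (15d, 4d, M and F), from doxycycline-treated cultures with the Ptprk-Rspo3 inversion, also grown in EN. P-Rspo3 cultures were mixed populations of edited cells that had grown without RSPO1 and not single clones. Medium and genotype cannot be told apart wherever WT is compared with either mutant group, whereas Apc and P-Rspo3 shared EN medium and differed in their lines.

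Cells make cholesterol from acetyl-CoA through mevalonate, isoprenoid diphosphates, squalene and lanosterol, and make saturated fatty acids from the same acetyl-CoA. Both routes are controlled by SREBP transcription factors, which are held in the endoplasmic reticulum by SCAP and the INSIG proteins while sterol is plentiful and move to the Golgi for cleavage when it is scarce. In the intestine, stem and progenitor cells need sterols and fatty acids for new membranes, while the absorptive enterocytes of the villus also take up dietary cholesterol and fat and package them into lipoproteins.

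Promoter sequences are shown so that the sequence of a gene can be read beside its expression. They are those of Insig1, Sc5d and Srebf2, some of the genes on which the results turn. Hmgcs1 is added because a sterol regulatory element core was found in it. Those of Acly, Pmvk and Scap, on which the results also turn, are not shown. Each covers 250 bases before to 50 bases after a transcription start in RefSeq (build GRCm38.p6), 5′ to 3′ on the strand of the gene. Capitals mark 4 motifs searched on both strands: TCACNCCAC, a sterol regulatory element core; CACGTG, the E-box; CCAAT, or ATTGG on the other strand, the site type of NF-Y; and GGGCGG, or CCGCCC on the other strand, the GC box of Sp1.
Hmgcs1 chr13:119690101-119690400 +: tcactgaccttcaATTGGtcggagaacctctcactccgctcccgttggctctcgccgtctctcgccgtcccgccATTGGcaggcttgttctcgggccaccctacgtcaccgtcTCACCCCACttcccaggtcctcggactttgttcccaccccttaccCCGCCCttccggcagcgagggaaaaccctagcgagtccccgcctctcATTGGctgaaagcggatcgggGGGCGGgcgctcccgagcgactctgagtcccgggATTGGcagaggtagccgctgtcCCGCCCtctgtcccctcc
Insig1 chr5:28071162-28071461 +: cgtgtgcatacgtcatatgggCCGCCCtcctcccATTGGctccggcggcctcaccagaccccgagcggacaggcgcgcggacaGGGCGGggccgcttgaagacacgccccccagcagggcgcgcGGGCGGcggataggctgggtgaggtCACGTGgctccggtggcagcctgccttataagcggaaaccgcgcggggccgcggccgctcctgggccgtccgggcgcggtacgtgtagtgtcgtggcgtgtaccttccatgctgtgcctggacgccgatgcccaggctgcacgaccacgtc
Sc5d chr9:42264251-42264550 -: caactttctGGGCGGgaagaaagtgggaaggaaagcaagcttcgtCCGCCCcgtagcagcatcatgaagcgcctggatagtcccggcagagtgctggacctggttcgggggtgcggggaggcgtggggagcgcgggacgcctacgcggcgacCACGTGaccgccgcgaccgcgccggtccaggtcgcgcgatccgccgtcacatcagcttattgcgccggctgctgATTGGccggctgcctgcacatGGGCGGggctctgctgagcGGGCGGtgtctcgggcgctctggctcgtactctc
Srebf2 chr15:82147019-82147318 +: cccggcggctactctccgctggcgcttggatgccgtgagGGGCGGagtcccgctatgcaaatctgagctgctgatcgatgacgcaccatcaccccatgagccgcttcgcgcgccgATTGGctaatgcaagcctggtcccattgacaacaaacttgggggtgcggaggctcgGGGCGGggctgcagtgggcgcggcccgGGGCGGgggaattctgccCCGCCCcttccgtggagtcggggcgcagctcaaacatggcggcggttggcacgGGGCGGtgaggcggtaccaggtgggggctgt

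Hmgcs1 held the TCACNCCAC letters 137 bases before its start, and it was the only 1 of the 24 members with a promoter in the table to hold them (4.17%, beside 1.44% of 27025 genes). Insig1 and Sc5d each held a CACGTG, at 101 and 98 bases before the start, as did Dhcr7, Hsd17b7 and Scap, making 5 of 24 (20.8%, beside 8.09% of genes). CCAAT was present in 20 of 24 members (83.3%, beside 41.1% of genes) and GGGCGG in 20 of 24 (83.3%, beside 38.2%). These shares count letters in these windows and were given no test. No promoter sequence was matched for Fdft1, Fdps, Scd1, Scd2, Sqle and Stard4.

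Libraries held 28902729 to 35528495 counts. Epithelial markers (Epcam, Cdh1, Vil1, Cdx2 and the keratins Krt8, Krt18 and Krt19) summed to 1896 to 2376 FPKM (fragments scaled to transcript length and to the mapped fragments of the library) over the 13 libraries, whereas 5 fibroblast markers summed to at most 0.311 FPKM, with Dcn at 0 in all but P-Rspo3 15d (0.0147 FPKM), and 3 adipocyte markers to at most 0.0248 FPKM, with Adipoq and Lep at 0. The 5 immune markers summed to 1.29 to 10.5 FPKM, and 4 endothelial markers to at most 2.68 FPKM, with Kdr at 0. Rspo3 was at 6.26 to 11.5 FPKM in P-Rspo3 libraries and at most 0.668 FPKM elsewhere. Apc itself was at 28.3 to 30.5 FPKM in Apc libraries and 11.6 to 22.3 FPKM in WT, but a value over the whole gene does not test the deletion of an exon. The Wnt target Axin2 was at 148 to 173 FPKM in Apc libraries and 24.7 to 51.6 FPKM in WT.

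Levels of different genes were compared in FPKM, which divides by transcript length. In WT the highest member was Scd2, a stearoyl-CoA desaturase, at 574 ± 22.0 FPKM (SD, n = 5), followed by Msmo1, which removes methyl groups from lanosterol derivatives, at 234.9 ± 20.98 FPKM. Fdps, the farnesyl diphosphate synthase, was at 204 ± 29.1 FPKM and Hmgcs1, the HMG-CoA synthase, at 187 ± 18.8 FPKM, so that these neighbours lay within each other's spread. The lowest were Scap, the escort of the SREBPs, at 13.3 ± 1.97 FPKM, and Acaca, the acetyl-CoA carboxylase, at 13.3 ± 3.26 FPKM. Scd2 led in all 3 groups. Insig1, an endoplasmic reticulum anchor of SCAP, was the fifth highest member in WT at 161 ± 45.0 FPKM and stood at 70.5 ± 5.71 FPKM (SD, n = 4) in Apc.

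**Figure D1:**
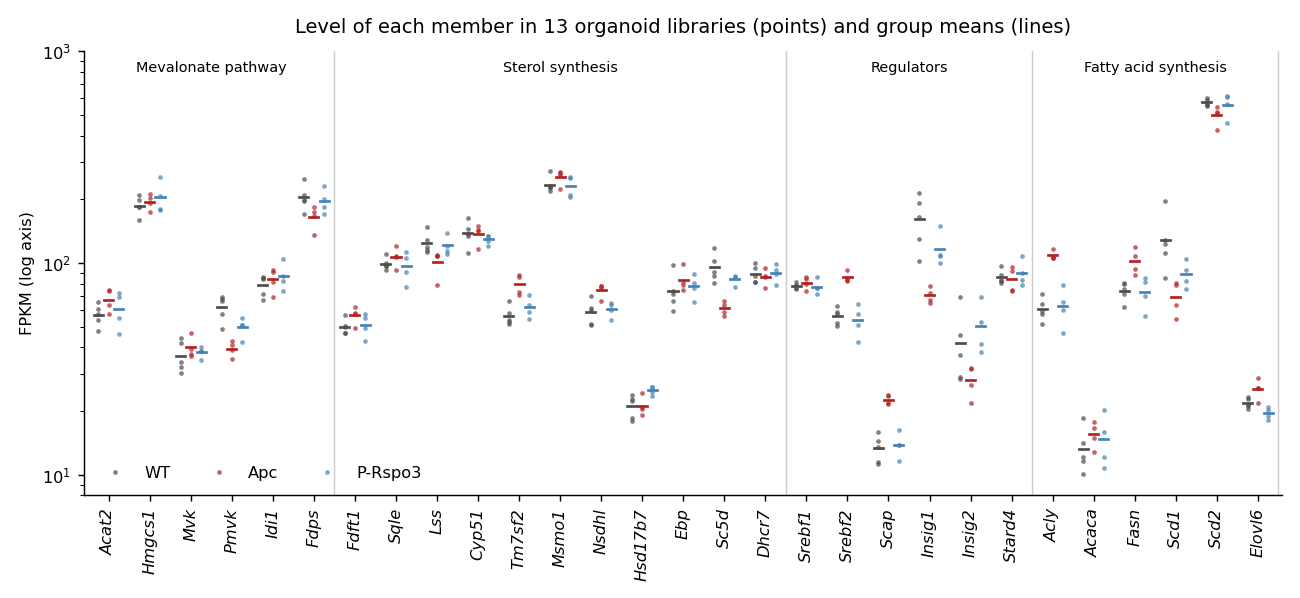
FPKM of 29 members on a log axis, with 1 point for each of the 13 libraries and a line at each group mean (WT n = 5, Apc n = 4, P-Rspo3 n = 4). Scd2 lies at the top of every group and Scap and Acaca lie at the bottom of WT, while the Apc points of Insig1 and Scd1 sit below those of WT.

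Differences of 1 gene between groups were measured on counts relative to TMM-scaled library size (TMM CPM), which sets aside the genes with the most extreme ratios when it aligns libraries. A member was called higher or lower at an adjusted p under 0.05 in the quasi-likelihood test of edgeR, adjusted over every gene tested after Benjamini and Hochberg. Nothing in the labels states that the libraries of a group came from separate animals, so that p-values measure the spread between these libraries, which may in part be technical. In bulk RNA, fewer cells of a type and less RNA per cell cannot be told apart. Of the 30 members, 29 passed the filter on low values in each comparison, the lowest value of any of them in any library being 10.1 FPKM against a filter of 0.1. Mvd, the mevalonate diphosphate decarboxylase, was not among the genes with FPKM and so was tested only without that filter. The strand setting of the counting was not given in the sources used here, so that reads where Srebf1 overlaps Rai1 (109 bases), Cyp51 overlaps Akap9 (166 bases) and Fdft1 overlaps Ctsb (774 bases) on the other strand cannot be told apart.

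The first comparison, Apc with WT, addresses the transcriptional state of organoids without Apc. In it, 12 of 29 members were lower in Apc and 3 were higher. Insig1 and Scd1, the other main stearoyl-CoA desaturase of the group, had the largest differences, 2.82-fold and 2.29-fold lower in Apc. The enzymes Pmvk and Sc5d were each 1.92-fold lower. The 3 higher genes were Acly, which makes cytosolic acetyl-CoA from citrate, at 1.46-fold, Scap at 1.40-fold and Srebf2, which encodes the SREBP most tied to cholesterol synthesis, at 1.25-fold. Of the 16749 genes tested, 30% were higher and 29.0% lower in Apc, so that the members' share of higher genes (3 of 29, 10.3%) was under the background and their share of lower genes (12 of 29, 41.4%) above it. The median log2 fold change was −0.20 over the members and 0.00058 over all genes, and with scaling by library size alone, which moved the median of all genes to 0.292, it was 0.09 over the members. On that scale 4 of 29 members and 3296 of the 16749 genes were lower, so that the members' share of lower genes was under the background. Only Insig1 and Scd1 fell by more than 2-fold, where 14.1% of all genes did, and 0 members rose by more than 2-fold, where 12.2% did.

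**Figure D2:**
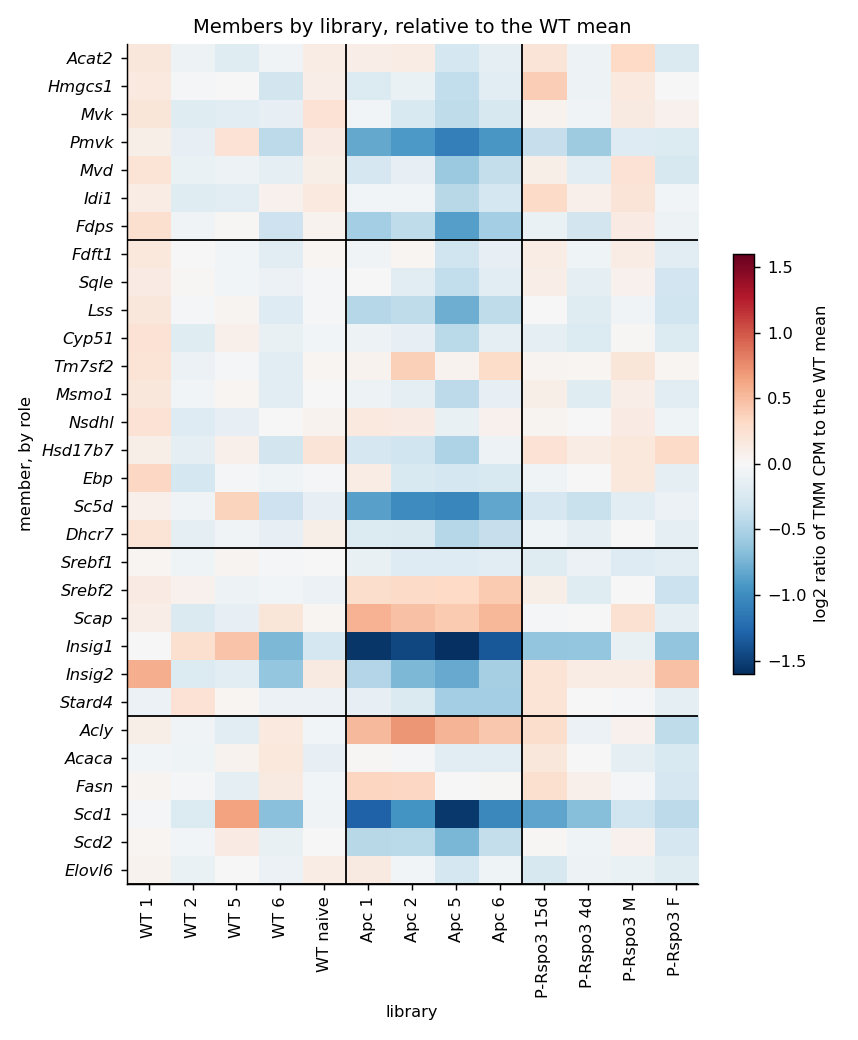
Log2 ratio of TMM CPM in each of 13 libraries to the WT mean, for 30 members ordered by role (rows) and libraries ordered by group (columns). The rows of Insig1, Scd1, Pmvk and Sc5d are lower in all 4 Apc libraries, those of Acly, Scap and Srebf2 are higher, and the P-Rspo3 columns lie closer to WT.

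Among the 6 regulators, 4 were lower in Apc than in WT (Insig1, Insig2, Srebf1 and Stard4) and 2 were higher (Srebf2 and Scap). These were 66.7% and 33.3%, beside 29.0% of all genes lower and 30% higher. Insig1 (chromosome 5, 28071363 to 28078662, plus strand, GRCm38), whose promoter is printed above, was at 509, 606, 694 and 306 TMM CPM in WT lines 1, 2, 5 and 6 and 416 in the dox-naive culture. It was at 173, 185, 166 and 197 TMM CPM in Apc lines 1, 2, 5 and 6, and at 327, 329.9, 466 and 328 TMM CPM in P-Rspo3 15d, 4d, M and F. Every Apc library lay below every other library, WT line 6 was the lowest of WT, and WT and P-Rspo3 overlapped. The Apc to WT difference was −1.50 ± 0.21 (log2 fold change ± SE, edgeR adjusted p = 0.000105).

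Insig2 (chromosome 1, 121304353 to 121332589, minus strand), the second anchor of SCAP, was at 69.9, 40.2, 41.5 and 30.5 TMM CPM in WT lines 1, 2, 5 and 6 and 51.6 in the dox-naive culture. Its level was 33.8, 28.4, 26.7 and 32.3 TMM CPM in the Apc lines and 54.3, 51.0, 50.8 and 64.5 TMM CPM in P-Rspo3 15d, 4d, M and F. WT line 6 lay within the Apc range, so that Apc and WT overlapped, while Apc and P-Rspo3 did not. The difference of Insig2 from WT was −0.63 ± 0.20 in log2 (edgeR adjusted p = 0.0199), and it passed in 7 of the 9 fits that left out 1 library.

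Srebf2 (chromosome 15, 82147181 to 82205379, plus strand) was at 432, 412, 372 and 382 TMM CPM in WT lines 1, 2, 5 and 6 and 370.2 in the dox-naive culture. In the Apc lines it was at 477, 485, 489.8 and 525 TMM CPM, and in P-Rspo3 15d, 4d, M and F at 419, 345, 390.5 and 309 TMM CPM. All 4 Apc libraries were above all others, and the P-Rspo3 range reached below WT. Srebf2 rose by 0.32 ± 0.07 in log2 over WT (edgeR adjusted p = 0.00232).

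Scap (chromosome 9, 110333288 to 110384950, plus strand) was at 67.7, 53.8, 57.4 and 72.2 TMM CPM in the numbered WT lines and 64.2 in the dox-naive culture. The Apc lines stood at 92.4, 87.6, 84.4 and 91.3 TMM CPM, and P-Rspo3 15d, 4d, M and F at 61.7, 63.6, 74.9 and 57.0 TMM CPM. Again the 4 Apc libraries were the highest and did not overlap with either other group. Scap rose by 0.49 ± 0.09 in log2 over WT (edgeR adjusted p = 0.000588).

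Srebf1 (chromosome 11, 60199089 to 60222581, minus strand), whose product is most tied to fatty acid synthesis, was at 268, 249, 271 and 259 TMM CPM in the numbered WT lines and 263 in the dox-naive culture. It was at 241, 227, 226 and 232 TMM CPM in the Apc lines and 229, 245, 228 and 234 TMM CPM in P-Rspo3 15d, 4d, M and F. Both mutant groups lay below every WT library and overlapped each other. The difference from WT was small, −0.18 ± 0.06 in log2 (edgeR adjusted p = 0.0147), and in a fit with line as replicate block it was −0.18 with an adjusted p of 0.0705. Scaling by library size alone turned the direction of Srebf1, to 0.11. The last regulator, the sterol transfer protein Stard4, fell by 0.36 ± 0.11 in log2 (edgeR adjusted p = 0.0162). Stard4 passed in 7 of the 9 fits that left out 1 library and kept the call in 14 of 20 alternatives.

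**Figure D3:**
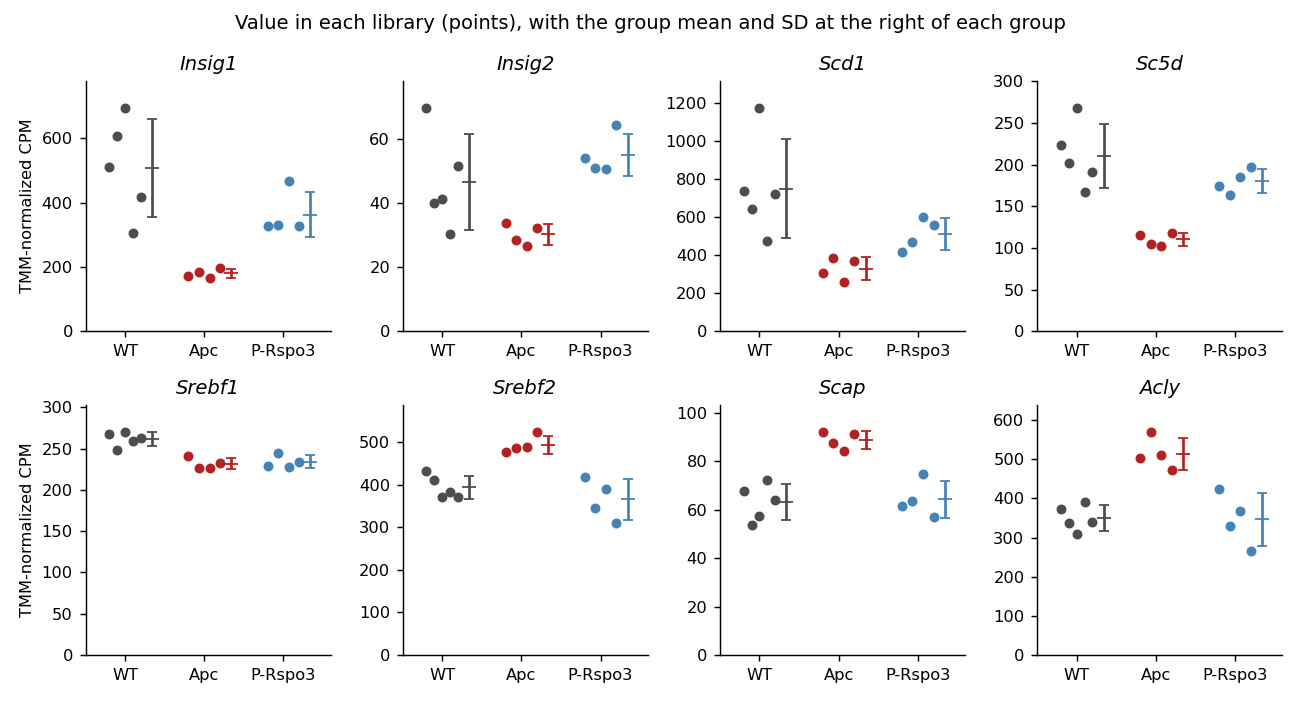
TMM CPM of Insig1, Insig2, Scd1, Sc5d, Srebf1, Srebf2, Scap and Acly in each of 13 libraries by group, with the group mean and SD (WT n = 5, Apc n = 4, P-Rspo3 n = 4). Apc points lie below all others for Insig1, Scd1 and Sc5d and above all others for Srebf2, Scap and Acly.

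In the mevalonate route, 2 of 6 tested enzymes were lower in Apc than in WT (33.3%, near the 29.0% of all genes). Of these enzymes 0 were higher, beside 30% of all genes. Pmvk, the phosphomevalonate kinase, was at 119, 101, 131, 83.2 and 122 TMM CPM in WT lines 1, 2, 5, 6 and the dox-naive culture. It was at 63.2, 58.7, 52.2 and 58.2 TMM CPM in the Apc lines, below every other library, and at 86.1, 74.9, 96.2 and 95.9 TMM CPM in P-Rspo3. Pmvk fell by 0.94 ± 0.12 in log2 (edgeR adjusted p = 7.2e-05). Fdps fell by 0.59 ± 0.12 (edgeR adjusted p = 0.00188). Hmgcs1, Mvk, Idi1 and Acat2, a cytosolic acetoacetyl-CoA thiolase, did not pass, at −0.23, −0.23, −0.20 and −0.05 (adjusted p = 0.0717 to 0.723 in edgeR). Mvd, tested without the FPKM filter, was at 141 ± 15.5 TMM CPM in WT (SD, n = 5) and 112 ± 14.97 in Apc (SD, n = 4), a log2 fold change of −0.34 ± 0.11 with an edgeR adjusted p of 0.0193. Against P-Rspo3, Mvd was at −0.32 and did not pass (edgeR adjusted p = 0.0670). The TMM CPM of the 6 tested enzymes summed to 1277 to 1724 in WT, 1056 to 1331 in Apc and 1372 to 1744 in P-Rspo3. In FPKM the sums lay closer together, at 554 to 721 in WT, 508 to 641 in Apc and 566 to 721 in P-Rspo3.

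Of the 11 enzymes from squalene to cholesterol, 4 were lower in Apc than in WT (36.4%, beside 29.0% of all genes). Another 7 did not pass and 0 were higher, beside 30% of all genes. Sc5d, the lathosterol desaturase (chromosome 9, 42251595 to 42264256, minus strand), was at 223, 202, 268, 167 and 191 TMM CPM in WT lines 1, 2, 5, 6 and the dox-naive culture. In Apc it was at 116, 105, 102 and 118 TMM CPM, and in P-Rspo3 at 175, 164, 185 and 197 TMM CPM, so that Apc stood apart from both other groups, which overlapped. Sc5d fell by 0.94 ± 0.12 in log2 (edgeR adjusted p = 7.7e-05). Lss, the cyclase that forms lanosterol, fell by 0.51 ± 0.10 (edgeR adjusted p = 0.00121), and Dhcr7, which catalyses the last step of one branch to cholesterol, by 0.32 ± 0.09 (edgeR adjusted p = 0.0104). Hsd17b7, a ketosteroid reductase, passed narrowly at −0.29 ± 0.11 (edgeR adjusted p = 0.0477). In a fit with line as replicate block it was at −0.23 (adjusted p = 0.174), and with scaling by library size alone at 0.01. The rate-controlling squalene epoxidase Sqle was at −0.18 (adjusted p = 0.0831 in edgeR), Cyp51 at −0.20 (adjusted p = 0.127 in edgeR) and Msmo1 at −0.19 (adjusted p = 0.0988 in edgeR), none of which passed. Fdft1, the squalene synthase, was at −0.12, the isomerase gene Ebp at −0.16, the dehydrogenase gene Nsdhl at 0.06 and the reductase gene Tm7sf2 at 0.20, with edgeR adjusted p from 0.1001 to 0.6296, and did not pass.

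Of the 6 fatty acid genes, the desaturases Scd1 and Scd2 were lower in Apc (2 of 6, 33.3%, near the 29.0% of all genes), Acly was higher and 3 did not pass. Scd1 (chromosome 19, 44394455 to 44407879, minus strand) was at 735, 641, 1172 and 471 TMM CPM in WT lines 1, 2, 5 and 6 and 723 in the dox-naive culture. It was at 304, 386, 257 and 367 TMM CPM in the Apc lines and 415, 466, 598 and 558 TMM CPM in P-Rspo3 15d, 4d, M and F. The Apc libraries were below all others, WT line 5 was far above the rest of WT, and the coefficient of variation of Scd1 in WT (34.6%) was the highest of any member in any group. Scd1 fell by 1.19 ± 0.23 in log2 (edgeR adjusted p = 0.00117), and Scd2 by 0.50 ± 0.09 (edgeR adjusted p = 0.00096).

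Acly (chromosome 11, 100476353 to 100528000, minus strand) was at 374, 338, 309, 392 and 339 TMM CPM in WT lines 1, 2, 5, 6 and the dox-naive culture. In the Apc lines it was at 502, 571, 511 and 473 TMM CPM, and in P-Rspo3 15d, 4d, M and F at 424, 329, 368 and 265 TMM CPM. Apc was above every WT and P-Rspo3 library, and WT and P-Rspo3 overlapped. Acly rose by 0.55 ± 0.09 in log2 (edgeR adjusted p = 0.000243). Fasn, the fatty acid synthase, was at 0.18 (adjusted p = 0.143 in edgeR) and did not pass, nor did Acaca at −0.10 and the elongase Elovl6 at −0.06 (adjusted p = 0.303 and 0.565 in edgeR).

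Within the 4 lines measured both with and without Apc, 13 of the 30 members were lower after deletion in every line, 3 were higher in every line (Acly, Scap and Srebf2) and 14 were mixed. Of the 16749 genes tested, 30.8% were lower and 32.8% higher in every line. The size varied between lines. The log2 ratio of Insig1 ran from −0.64 in line 6 to −2.07 in line 5, and that of Scd1 from −0.36 in line 6 to −2.19 in line 5. Apc line 5 was the lowest Apc library for 26 of 30 members, and the number of members called lower than WT was 8 without it.

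Cell type markers moved with these groups. The 8 enterocyte markers summed to 3233 to 9409 FPKM in WT, 48.1 to 74.5 in Apc and 2256 to 5222 in P-Rspo3, and all 8 were lower in Apc than in WT (median log2 fold change −9.36). The 8 proliferation markers summed to 435 to 544 FPKM in WT, 845 to 924 in Apc and 395 to 547 in P-Rspo3, and all 8 were higher in Apc than in WT (median 0.66). Of 4 crypt and stem cell markers, 3 were higher in Apc and Olfm4 was lower. In WT, line 5 was the highest and line 6 the lowest library for the enterocyte sum. The same held in TMM CPM for 5 of 30 members (Insig1, Scd1, Pmvk, Sc5d and Scd2). In P-Rspo3, 0 of 30 members shared both extremes with the sum. In Apc the FPKM sum was highest in line 1 and lowest in line 6, and Stard4 and Acaca shared both extremes. How many of all genes share such extremes was not counted, so these counts do not set the members apart from other genes. The part of cell type in the members' differences was not tested.

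The second comparison set Apc against P-Rspo3, with both in EN medium. It shares its Apc libraries with the first, so the values are given side by side and are not a second independent measurement. Here 14 of 29 members were lower in Apc and 3 higher, against 27.7% and 28.7% of the 16456 genes tested. Without Apc line 5, the lowest Apc library for most members, 9 were lower. The members' median log2 fold change was −0.15, beside 0.00066 over all genes. Insig1 was again the largest, 2.01-fold lower in Apc than in P-Rspo3 (log2 fold change −1.01 ± 0.13, edgeR adjusted p = 0.000118), and was the only member past 2-fold in this comparison (13.3% of all genes were past 2-fold lower and 13.4% past 2-fold higher, with 0 members higher).

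Insig2 was at −0.86 ± 0.11 against P-Rspo3 (edgeR adjusted p = 0.000132), beside −0.63 against WT. Sc5d was at −0.71 ± 0.08 (edgeR adjusted p = 6.73e-05), beside −0.94 against WT, and Pmvk at −0.60 ± 0.10 (edgeR adjusted p = 0.00053), beside −0.94. Scd1 was at −0.63 ± 0.16 (edgeR adjusted p = 0.00678), beside −1.19. Whether these estimates differ between the comparisons was not tested.

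Against P-Rspo3, 5 of 6 mevalonate enzymes were lower in Apc (83.3%, beside 27.7% of all genes). Hmgcs1 was at −0.35 (edgeR adjusted p = 0.0264), Idi1, the isopentenyl diphosphate isomerase, at −0.33 (edgeR adjusted p = 0.0276) and Mvk, the mevalonate kinase, at −0.28 (edgeR adjusted p = 0.0176), and these 3 had not passed against WT. Hmgcs1 and Idi1 kept the call in 4 of the 8 fits that left out 1 library, and in 10 of 18 alternatives each. Mvk kept it in 13 of 18 alternatives, Fdps in 15 and Pmvk in all 18. Sterol enzymes again had 4 of 11 lower (36.4%) and 0 higher, beside 27.7% and 28.7% of all genes. Those lower were Sc5d, Hsd17b7 at −0.49 (edgeR adjusted p = 0.00149), Lss at −0.36 (edgeR adjusted p = 0.0154) and Dhcr7 at −0.21 (edgeR adjusted p = 0.0314). Dhcr7 kept that call in 8 of 18 alternatives. Acly was higher in Apc by 0.57 ± 0.13 (edgeR adjusted p = 0.00493), Scap by 0.47 ± 0.08 (edgeR adjusted p = 0.00111) and Srebf2 by 0.44 ± 0.10 (edgeR adjusted p = 0.00394). Srebf1 was at −0.01 (adjusted p = 0.878 in edgeR) and did not pass. In all, 11 members were lower in Apc in both comparisons, 3 were higher in both, 1 was lower against WT only, 3 were lower against P-Rspo3 only and 11 passed in neither. How many of all genes passed in both comparisons was not counted, and both use the same Apc libraries. These counts therefore do not set the members apart from other genes.

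**Figure D4:**
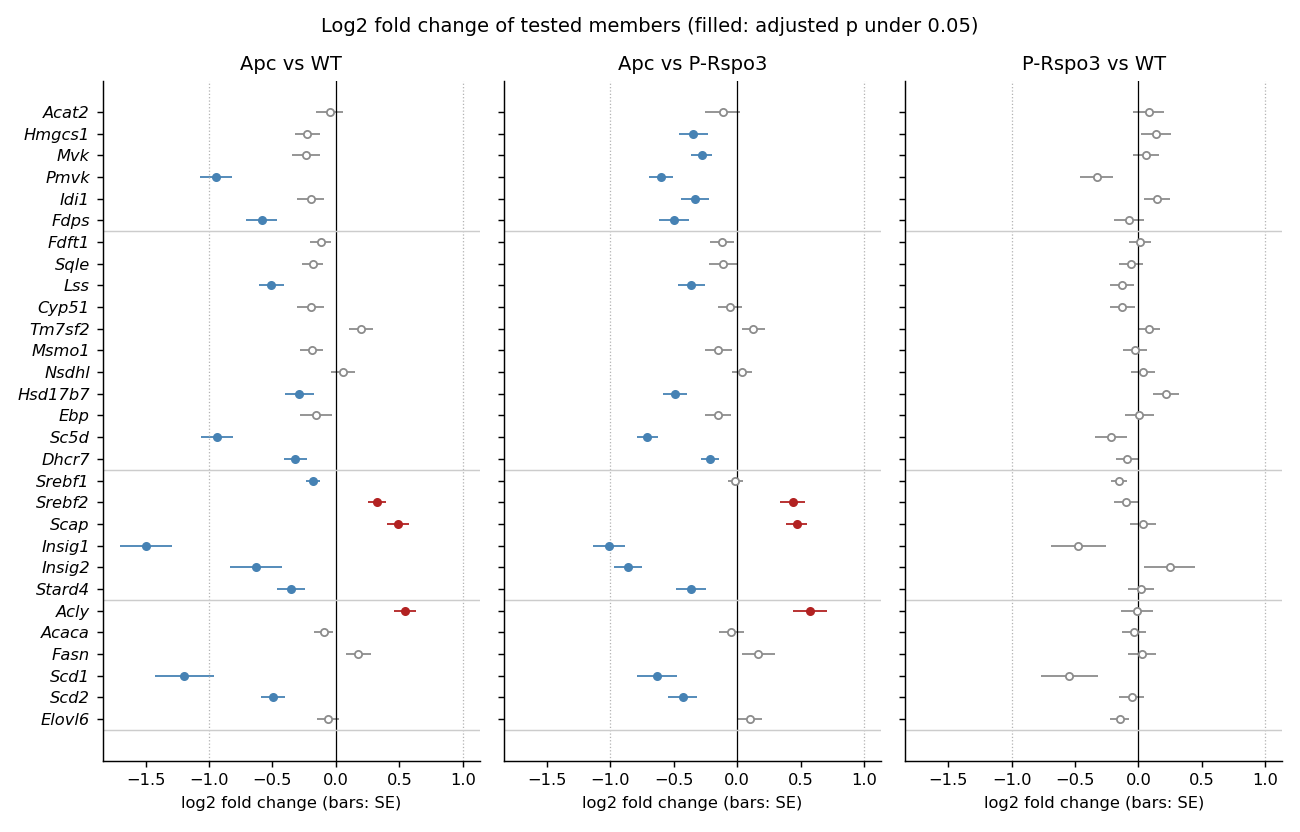
Log2 fold change with SE for 29 members in 3 panels (Apc to WT, Apc to P-Rspo3 and P-Rspo3 to WT), where filled points passed an adjusted p under 0.05 in edgeR's quasi-likelihood test. The left and middle panels hold 12 and 14 filled points below 0 and 3 each above 0, and the right panel holds no filled point. With scaling by library size alone, Srebf1 and Hsd17b7 in the left panel and Dhcr7 in the middle panel lie above 0.

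The third comparison, P-Rspo3 with WT, asks how far the inversion changes the profile of cultures that no longer receive RSPO1. No member passed. Of 15992 genes tested, 0.00625% were higher and 0% lower in edgeR, so that the comparison as a whole called 1 gene. At an unadjusted p under 0.05 there were 3 members and 2159 genes, and DESeq2 called 204 genes higher and 304 lower but 0 members. Scd1 was lowest, at −0.55 ± 0.23 (edgeR adjusted p = 0.328), Insig1 was at −0.47 ± 0.22 (edgeR adjusted p = 0.380), Pmvk at −0.33 ± 0.13 (edgeR adjusted p = 0.310) and Insig2 was the highest, at 0.25. Among the members, only for Srebf1 did the 2 groups not overlap, at −0.15 ± 0.06 (edgeR adjusted p = 0.318). How many of all genes had groups that did not overlap was not counted, so this does not set Srebf1 apart. The median over members was −0.03, beside 0.00412 over all genes. A p that misses the threshold does not show that the members were at equal levels.

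The other genes of sterol handling, a list of 20 with 19 tested, had 5 higher and 9 lower in Apc than in WT, and 6 higher and 9 lower than in P-Rspo3. The share higher than WT, 26.3%, was near the 30% of all genes, and the share lower was 47.4% beside 29.0%. Against P-Rspo3 the share higher, 31.6%, was near the 28.7% of all genes, and the share lower was 47.4% beside 27.7%. The largest falls were in Npc1l1, the transporter that takes up dietary cholesterol at the brush border, at −6.03 and −5.86 in log2 against WT and P-Rspo3, and Nr1h3, which encodes the sterol sensing receptor LXR alpha, at −4.83 and −5.08. The largest rises were in the cholesterol exporter Abcg1, at 1.72 and 2.56, and the sterol hydroxylase Cyp27a1, at 1.47 and 1.64. Both were low, with Abcg1 at 0.262 to 0.586 TMM CPM in WT and 0.586 to 1.83 in Apc, and both overlapped between Apc and WT. Cyp27a1 was at 1.21 to 3.87 TMM CPM in WT and 4.46, 1.52, 10.0 and 10.8 in Apc lines 1, 2, 5 and 6. Against WT it passed in 4 of the 9 fits that left out 1 library. The proteases that release SREBPs in the Golgi, picked after their values were seen, were both higher, Mbtps1 by 0.44 and 0.41 and Mbtps2 by 0.48 and 0.28.

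The list of 22 other fatty acid genes, 20 of them tested, had 1 higher and 11 lower in Apc than in WT, and 2 higher and 9 lower than in P-Rspo3. Those lower were 55.0% of the tested list against WT and 45.0% against P-Rspo3, beside 29.0% and 27.7% of all genes, and those higher 5.0% and 10.0%, beside 30% and 28.7%. Mlxipl, which encodes the carbohydrate response factor ChREBP, was at −2.70 against WT and −2.54 against P-Rspo3. Me1, the malic enzyme that supplies NADPH, was at −2.30 and −2.40. The elongase Elovl5 was higher, by 0.45 and 0.51, and Hacd3, a dehydratase of very long fatty acids, was higher than in P-Rspo3 by 0.17. No gene of either list passed in P-Rspo3 against WT.

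The count of members in each direction depended on how libraries were scaled. Scaling by library size alone moved the median of all genes to 0.258 for Apc to P-Rspo3. It split the calls over all genes into 7546 higher and 3296 lower against WT, where TMM gave 5028 and 4864, and into 6903 and 3175 against P-Rspo3, where TMM gave 4719 and 4557. On that scale 7 of 29 members were higher and 4 lower against WT, and 8 higher and 4 lower against P-Rspo3. Their medians were 0.09 and 0.10, both below the median of all genes on that scale. The share of members called lower was then under that of the 16749 and 16456 genes tested, where with TMM it was above. Group means in FPKM were lower in Apc than in WT for 11 of 29 members, and in TMM CPM for 23. Insig1, Pmvk and Sc5d stayed lower and Acly, Scap and Srebf2 stayed higher in both comparisons under every alternative but the added 2-fold threshold, and so did Scd1 (lower) against WT and Insig2 (lower) against P-Rspo3.

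**Figure D5:**
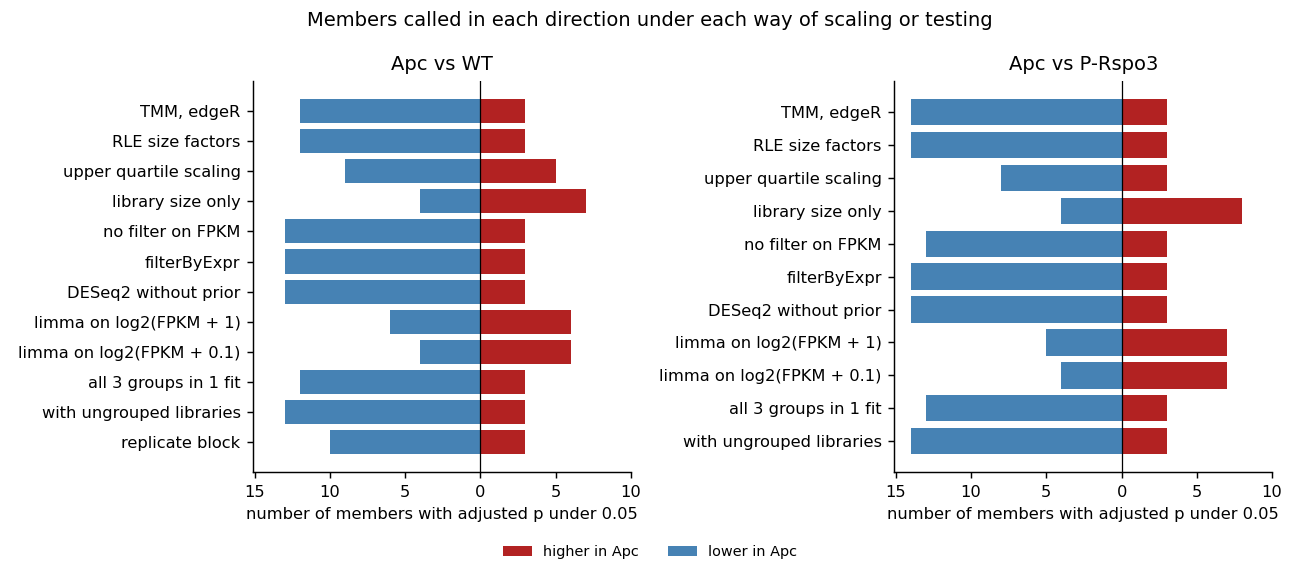
Number of members called higher and lower in Apc under each processing setting, for Apc to WT (left) and Apc to P-Rspo3 (right). Bars start at 0, and the lower counts drop from 12 and 14 to 4 with scaling by library size alone, where the higher counts reach 7 and 8.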

How the data were processed

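Per the paper's methods and the submitters' processing notes, reads were aligned to mouse GRCm38 with STAR, the authors counted reads per gene with HTSeq 0.6.0 and deposited those raw counts as 1 table, and the authors made the deposited FPKM values with Cufflinks 2.2.1. Strand setting and annotation release were not given in the sources used here. Counts were given for 43629 genes and FPKM for 43437, of which 42462 IDs were paired with a symbol. Mvd was not in the FPKM table. Gene positions are those of GENCODE M21 on GRCm38. Counts of the 13 grouped libraries ranged from 28902729 to 35528495.

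Groups followed the sample labels. A pair of libraries whose title and genotype fields disagree entered only the alternative that groups by the genotype field. The 30 members, the lists and the tests were chosen with earlier results of these data known. Genes at 0.1 FPKM or above in a number of libraries equal to the smaller group's size or more were fitted to the counts of the groups compared with edgeR 4.0.16 (quasi-likelihood test, TMM scaling, R 4.3.3), with Benjamini-Hochberg adjustment over all genes tested. SE is the size of the log2 fold change divided by the square root of the F statistic. TMM CPM was computed over the 13 libraries. The value in every library is given for members past adjusted p under 0.05 and 2-fold in any comparison and for Srebf1, Srebf2, Scap, Insig1 and Insig2, and also for Pmvk, Sc5d and Acly, chosen after their values were seen. From the other sterol and fatty acid genes, the 2 largest rises and 2 largest falls of each list were named.

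WT and Apc libraries with the same number are the same line by title. The deviations of each pair from the group means correlated at 0.218, 0.189, 0.115 and 0.0853 for lines 1, 2, 5 and 6 over 12645 genes, and line 6 in Apc correlated more with another WT line (0.144) than with its own. By the titles, the line was also fitted as a replicate block. Alternatives were RLE, upper quartile and library size scaling, no FPKM filter, filterByExpr, DESeq2 1.42.0, limma 3.58.1 on log2(FPKM + 1) and log2(FPKM + 0.1), all 3 groups in 1 fit, grouping by the genotype field, and leaving out each library. The procedure was run on simulated data with 200 well-counted genes changed, up or down, at a dispersion of 0.02. In the design of Apc against WT it recovered 100 of 101 genes set 2-fold apart and made 12 false calls among 16472. With so few genes changed, it does not test scaling where a large share of genes differs, as here, nor the smaller differences of most members. Promoters were read from RefSeq (GRCm38.p6) for 24 members. Tables and plots were made with python 3.11.15, pandas 2.3.3, numpy 2.4.6, scipy 1.17.1 and matplotlib 3.10.9.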

Additional observations from a re-analysis of the deposited data

Results flagged for a closer look

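Of 90 sets of libraries (30 members in 3 groups), 4 held a library that stood apart from the rest of its group by Dixon's criterion, where chance alone flags about 1 in 20. In TMM CPM, Lss in Apc line 5 was at 209 against 263 to 271 in the other Apc lines. Tm7sf2 in P-Rspo3 M was at 85.3 against 75.8 to 77.0 in the others of its group. Ebp in Apc line 1 was at 75.9 against 57.2 to 59.1. Insig1 in P-Rspo3 M was at 466 against 327 to 329.9. Lss was called lower in Apc against both other groups, and the causes were not tested.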

How the results depend on the processing

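For Apc against WT, the members called higher numbered 5 with upper quartile scaling, 7 with library size only, 6 with limma on log2(FPKM + 1), 6 with log2(FPKM + 0.1) and 0 with the 2-fold threshold added, and those called lower 4, 6, 4 and 2 under the last 4 of these. Against P-Rspo3, 8, 7, 7 and 0 were higher with library size only, the 2 limma settings and the 2-fold threshold, and 4, 5, 4 and 1 were lower, with 8 lower after upper quartile scaling. Directions turned with library size only, limma on log2(FPKM + 1) and log2(FPKM + 0.1) for Hsd17b7 against WT (0.0073, 0.011 and 0.011) and Srebf1 against WT (0.11, 0.052 and 0.052), with both limma settings for Mvk against P-Rspo3 (0.066 and 0.067), and with library size only for Dhcr7 against P-Rspo3 (0.042). Summed TMM CPM in place of FPKM gave log2 ratios of Apc to WT of −0.32 for mevalonate enzymes (−0.08 in FPKM), −0.25 for sterol enzymes (0.03) and −0.35 for fatty acid enzymes (−0.09), and 23 members in place of 11 had the lower mean in Apc. These settings differ in scale, and no other cause was tested. Leaving out 1 library gave 3 to 4 members higher and 8 to 14 lower against WT, and 3 to 3 higher and 9 to 14 lower against P-Rspo3, the lowest counts being without Apc line 5. With line as replicate block, Apc against WT had 3 higher and 10 lower, and Hsd17b7 (−0.23) and Srebf1 (−0.18) lost the call. P-Rspo3 against WT called 0 members under every alternative run. RLE, DESeq2, filterByExpr and the genotype field kept every call of higher or lower in both Apc comparisons. Against WT, DESeq2 and the genotype field also called Hmgcs1 lower, and filterByExpr, which tested Mvd, also called Mvd lower, each giving 13 lower.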

Other observations

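The library titled LIPO, with 27466904 counts, lay within the FPKM range of WT for 22 of 29 members, of P-Rspo3 for 21 and of Apc for 11. The library titled NAIVE_F, with 28234329 counts, lay within those ranges for 25, 18 and 10 members. Their titles and genotype fields disagree, so neither was placed in a group. Rspo3 was at 8.54 FPKM in NAIVE_F, within the P-Rspo3 range, and listed at 0 in LIPO.

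WT line 1 was the highest WT library for 15 of 30 members and WT line 6 the lowest for 15. In P-Rspo3, M was the highest for 16 members and F the lowest for 17. These groups are small, and the libraries' part in each result can be read from the fits that leave them out.

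Gene-level RNA values do not measure sterol content, SREBP cleavage or enzyme activity, and FPKM and TMM CPM place the members differently relative to other genes.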
